A study of Homo sapiens with 8 samples.

Results

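The transcriptome of untreated SW620 cells is described here from 2 of the 8 Illumina bead arrays of the series, replicates 1 and 2 of cells that were incubated for 24 h and received no agent. These arrays were taken by their titles, with earlier results of these data known, and no gene was chosen by a difference between groups. SW620 is an established human colorectal cancer line, and the other arrays of the series hold cells given the compound Y15, an siRNA to HAS3 or a scrambled siRNA, which are not compared here. Total RNA was extracted with TRIZOL and amplified to biotin-labelled cRNA, and the extraction label speaks of frozen tissue although each sample is labelled as the cell line. The labels do not say whether the replicates came from separate cultures, so the spread between them may be technical, and 1 line under 1 culture condition stands behind every value.

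SW620 was grown from a lymph node metastasis of a colon adenocarcinoma. The colon epithelium renews itself from crypt stem cells that depend on Wnt signals, and their daughters become absorptive cells with a brush border, mucus-secreting goblet cells or hormone-secreting endocrine cells. Loss of APC, which is known in this line, leaves beta-catenin free to drive Wnt target genes without a ligand. Epithelial cells hold to each other through cadherins, desmosomes and tight junctions, and to the matrix through integrins and focal adhesions.

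A bead array gives the brightness of a probe rather than a count of molecules. Probes differ in brightness per molecule, so the order of genes given here is an order of signals, and 2 genes of like RNA content can differ in it. Levels are log2 intensities after background correction and quantile normalization of the 2 arrays, and wherever a pair of levels is given the first is replicate 1 and the second is replicate 2. A gene was called detected on an array where at least 1 of its probes had a deposited detection p-value under 0.05, which compares the probe with the background of that array. The brightest probe stood for each gene.

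The arrays measured 24526 probes, of which 13872 (56.6%) were detected on replicate 1 and 13386 (54.6%) on replicate 2. The mean deposited intensity was 524.7 on replicate 1 and 489.1 on replicate 2, the brighter end of the 234.1 to 524.7 found over all 8 arrays. Of the probes, 21834 carried a gene name and stood for 16922 genes. Of these genes, 9883 (58.4%) were detected on both arrays, 705 (4.17%) on 1 array and 6334 (37.4%) on neither. Of 16586 protein-coding genes 9777 (58.9%) were detected on both. Detected genes had a median level of 8.28, and undetected genes a median of 4.59, with the highest undetected gene at 4.96. Percentiles under about 39.5 among all named genes therefore lie in the background and carry no order. Across the detected genes the levels of the 2 arrays differed by a median of 0.17 and by over 1 log2 unit in 20 genes (0.202%), and their Pearson correlation across genes was 0.991, which describes how alike these 2 arrays were.

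Detection alone is a low bar, as families of genes that belong to the nose, the tongue and the hair show. Of 449 genes for olfactory receptors, bitter taste receptors and hair keratin-associated proteins, 15 (3.34%) were detected on both arrays and 424 on neither. The brightest of them, KRTAP19-6, a protein of the hair shaft, had a level of 6.35 on both arrays. Of all named genes, 7773 (45.9%) were detected on both arrays with a mean level above it, while 2110 detected genes lay within the range of these families. For the gene lists below, the number of members above that range is given beside the number detected, and a gene given with values that lies within it is named as such. These counts are to be read beside the 58.4% of all named genes detected on both arrays and the 45.9% above the range. A list near these shares is not set apart by its count. An undetected probe does not show that the RNA was absent either. RPL10, a protein of the large ribosomal subunit that all cells need, had levels of 4.51 and 4.52 and was undetected, against 71 of 75 cytosolic ribosomal protein genes detected (94.7%). The remaining undetected ones were RPL39L, RPL3L and RPS27L, which are paralogs of other ribosomal protein genes.

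**Figure D1:**
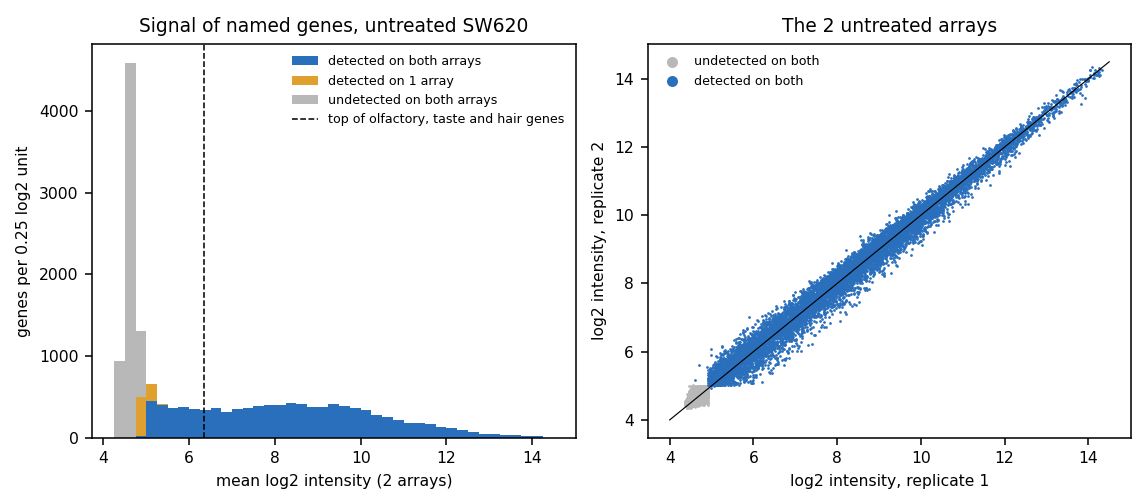
Left, number of named genes per 0.25 log2 unit of mean level over the 2 untreated arrays, coloured by detection on both, 1 or neither array, with the dashed line at 6.35, the highest olfactory, taste or hair gene. Right, level of each gene on replicate 2 against replicate 1 with the line of equality. The undetected genes form a narrow peak below 5, and the detected genes spread from there to 14.29.

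Probes of the same gene often gave different answers. Of 2273 detected genes with several probes, 1014 (44.6%) also had a probe that was undetected, and the median gap between the brightest and dimmest probe was 2.23 log2 units. Among the genes named by rule, 42 of 89 detected genes with several probes had an undetected one. For example, FOXA2 had a mean of 12.15 on its brightest probe and an undetected probe at 4.49, and CCR6 had 11.76 against 4.57. At least 1 probe was likewise undetected for CD68, CXCR5, DDR1, ERBB3, FGFR4, GJC1, ILK, ITGA3, JAG2, MBP, PC, PRAME, SERPINA1, UGP2 and VCL, whose values below are those of the brightest probe, and for the further genes where it is stated.

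The brightest signals belonged to the cytoskeleton and to translation. Ribosomal proteins were 18 of the 30 brightest genes and 32 of the 100 brightest, and the 100 brightest held 14.2% of the summed intensity of all named genes. ACTB, cytoplasmic beta-actin, had levels of 14.26 and 14.32, and ACTG1, cytoplasmic gamma-actin, had 14.32 and 14.26. RPL41, a short basic protein of the large ribosomal subunit, had 14.27 and 14.28. These signals lie at the upper end of the scale, where probes crowd and their order has little meaning. The translation factors EIF4A1, an RNA helicase that unwinds mRNA leaders, and EEF1A1, which brings aminoacyl-tRNA to the ribosome, had 14.24 and 14.24 for EIF4A1 and 14.25 and 14.08 for EEF1A1. TPT1, the translationally controlled tumour protein, had 14.21 and 14.19. Tubulin was represented by TUBA1C at 14.23 and 14.13 and TUBA1B at 14.12 and 14.04, alpha-tubulin genes whose close sequence likeness may let a probe read both.

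Genes outside these classes among the 30 brightest were few. ATP5F1B, the catalytic beta subunit of mitochondrial ATP synthase, had 14.22 and 14.13. OAZ1, ornithine decarboxylase antizyme, which restrains polyamine synthesis, had 14.13 and 14.16. CHCHD2, a protein of the mitochondrial intermembrane space, had 14.03 and 14.04. TMSB10, a small actin-binding peptide, had 13.98 and 14.03. ASPSCR1, known for tethering the glucose transporter GLUT4, had 13.99 and 13.98. Both arrays placed each of these genes among their brightest.

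The lists of lineage, adhesion, receptor and metabolic genes held 1072 genes in all, of which 961 had a named probe and the other 111 are not analysed here. Of the 961, 556 (57.9%) were detected on both arrays, beside 58.4% of all named genes. The categories differed: 245 of 320 metabolic genes (76.6%), 105 of 181 adhesion genes (58%), 126 of 275 receptor genes (45.8%) and 89 of 198 lineage genes (44.9%) were detected on both. Among the brightest 10% of named genes lay 111 of the 320 metabolic genes, against 24 of 181 adhesion, 22 of 198 lineage and 9 of 275 receptor genes. Markers of other cell types were detected in 16 of 71 cases (22.5%).

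**Figure D2:**
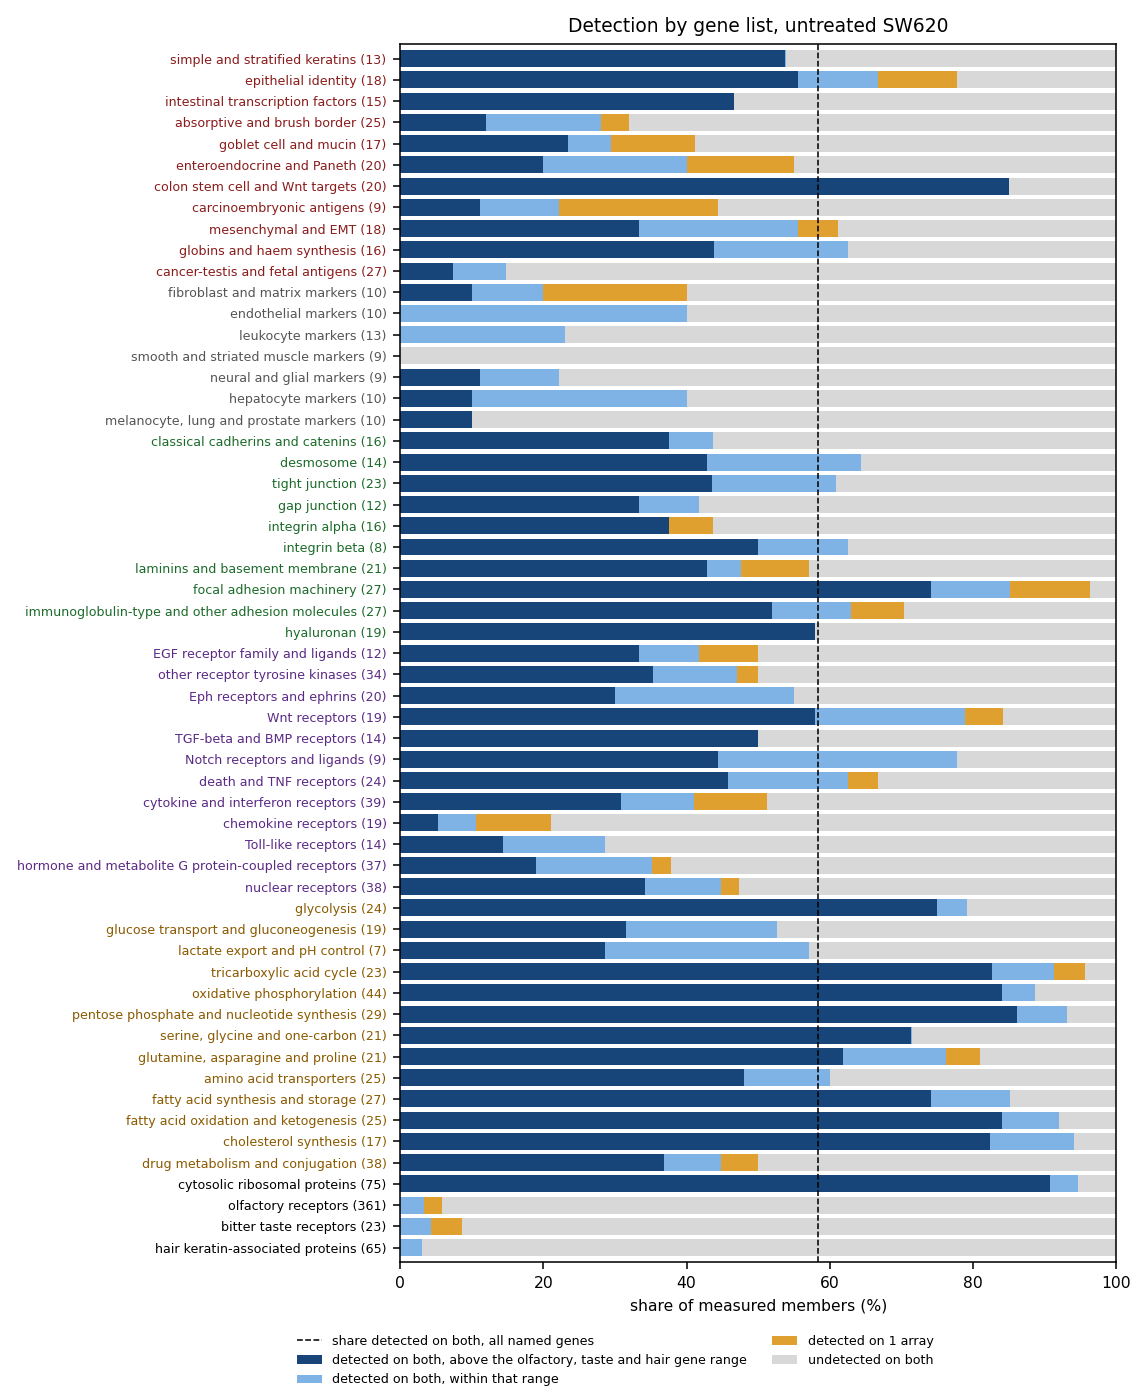
Share of the measured members of each gene list (number in brackets) detected on both untreated arrays above the range of the olfactory, taste and hair genes (dark blue), detected on both within that range (light blue), detected on 1 array (orange) or undetected (grey). The dashed line marks 58.4%, the share of all named genes detected on both. Cholesterol synthesis reaches 94.1% and smooth and striated muscle markers reach 0%, beside 3.32% for olfactory receptors.

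The label of the samples as colorectal cancer cells was set against 12 markers of colon epithelium. On both arrays 7 of them were detected, namely the keratins KRT8, KRT18 and KRT19, the adhesion proteins EPCAM and CDH1, the brush border protein VIL1 and the intestinal transcription factor CDX2. CEACAM5, carcinoembryonic antigen, was detected on 1 array. The differentiation markers KRT20, CDH17 and LGALS4 and the transcription factor CDX1 were undetected on both. The 7 of 12 stand beside 58.4% of all named genes detected on both arrays, so the count alone does not set these markers apart. Keratins of simple epithelia were among those detected, while markers of mature colonocytes were in part below detection.

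Keratins build the intermediate filaments of epithelial cells, and the pairs found here were those of simple, single-layered epithelia. KRT8, the type II keratin of simple epithelia, had levels of 13.34 and 13.02. KRT19, a type I partner, had 13.3 and 13.05, and KRT18, the usual partner of KRT8, had 8.89 and 8.88. KRT80, found in many epithelia, had 11.2 and 11.11, and KRT23 had 9.34 and 9.24. KRT10, a keratin of cornifying skin, was also bright at 11.01 and 10.78. KRT7 was detected as well, which made 7 of 13 measured keratins, all 7 above the range. The keratins of stratified epithelia KRT1, KRT4, KRT5, KRT13 and KRT14 were undetected together with KRT20, with levels between 4.44 and 4.68.

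Of the epithelial identity genes 12 of 18 were detected on both arrays, 10 of them above the range. SPINT2, a membrane-bound inhibitor of serine proteases, had 11.99 and 12.03. Its target ST14, matriptase, had 9.95 and 9.51, and the related inhibitor SPINT1 had 9.28 and 8.84. CDH1, E-cadherin, had 11.23 and 11.12, and EPCAM, the epithelial cell adhesion molecule, had 8.2 and 8.46. The epithelial transcription factor ELF3 had 8.72 and 8.56, and EHF and KLF5 were detected too. OVOL1, GRHL2 and ESRP2, which are regulators of epithelial transcription and splicing, were undetected at 4.6 and 4.57 for OVOL1, 4.55 and 4.62 for GRHL2 and 4.77 and 4.67 for ESRP2, as was RAB25, a small GTPase of epithelial membrane recycling, at 4.8 and 4.91.

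The intestinal transcription factors split into bright and undetected members, with 7 of 15 detected and all 7 above the range of the olfactory, taste and hair genes. FOXA2, a pioneer factor of gut endoderm, had 12.19 and 12.1, although 1 of its 3 probes was undetected. SOX9, a factor of crypt progenitors and Paneth cells, had 11.65 and 11.36. FOXA3, a relative of FOXA2, had 9.4 and 9.47. CDX2, which sets intestinal identity, had 9.33 and 9.4, against 4.43 and 4.38 for its undetected relative CDX1. KLF4, linked to goblet cell maturation, had 8.26 and 8.32. TCF7L2, the main partner of beta-catenin in the intestine, had 8.21 and 7.11, 1 of the 10 widest gaps between the 2 arrays among detected genes. GATA4 had 4.62 and 4.62, GATA5 had 4.59 and 4.54 and GATA6 had 4.53 and 4.64, all in the background, so none of these 3 endodermal GATA factors was detected. FOXA1, NR5A2, ONECUT2 and PDX1 were undetected as well.

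Genes of the mature absorptive cell were mostly below detection, with 7 of 25 detected and 3 above the range of the olfactory, taste and hair genes. Those 3 were parts of the brush border. VIL1, villin, which bundles the actin of microvilli, had 9.32 and 9.03. USH1C, harmonin, a scaffold of the links between microvilli, had 8.87 and 8.64, and EPS8L3, of the actin-regulating EPS8 family, had 8.42 and 8.15. CDHR2, a protocadherin of those links, had 6.09 and 5.99, and CA2, carbonic anhydrase 2, had 5.66 and 5.54, both within the range. Digestive enzymes, transporters and lipid carriers stayed in the background, with ALPI, intestinal alkaline phosphatase, at 4.71 and 4.64, ANPEP, aminopeptidase N, at 4.6 and 4.55 and AQP8, a water channel of the colon, at 4.51 and 4.46. CDH17, the liver-intestine cadherin, was undetected at 4.65 and 4.64. FABP1, FABP2, SI, LCT, GUCY2C and SLC26A3 were also undetected.

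Secretory lineages left few bright signals. TFF3, a trefoil peptide secreted by goblet cells, had 12.63 and 12.39, while MUC2, the gel-forming mucin of those cells, was undetected at 4.66 and 4.66. ATOH1, the factor that commits cells to the secretory lineage, was undetected at 4.56 and 4.54, as was CLCA1, a secreted goblet cell protein, at 4.49 and 4.52. Membrane mucins were detected, with MUC1 at 7.97 and 8.02 and MUC13 at 7.8 and 7.51. AGR2, a protein disulphide isomerase needed for mucin folding, had 5.16 and 5.03, within the range of the olfactory, taste and hair genes. In all 5 of 17 goblet cell and mucin genes were detected on both arrays, 4 of them above the range.

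Among 20 enteroendocrine and Paneth cell genes 8 were detected, 4 of them above that range. PRSS2, the anionic trypsinogen that Paneth cells use to process defensins, had 7.84 and 7.66. Its probe may also read the closely similar trypsinogen genes. CHGB, a protein of hormone granules, had 6.88 and 7.02, and SYP, synaptophysin of small vesicles, had 6.67 and 6.67. DEFA5, a Paneth cell defensin, had 6.41 and 6.66, against 4.45 and 4.45 for the undetected DEFA6. The hormones GCG, PYY, CCK and SST were undetected, with GCG at 4.62 and 4.79 and PYY at 4.58 and 4.54.

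The genes of colon stem cells and Wnt targets formed the lineage list with the highest share detected, 17 of 20, all above the range of the olfactory, taste and hair genes, and 7 among the brightest 10% of named genes. ASCL2, a transcription factor of crypt stem cells, had levels of 12.86 and 12.66. NOTUM, a secreted enzyme that inactivates Wnt ligands, had 12.94 and 12.54. CCND1, cyclin D1, which moves cells into the cycle, had 12.72 and 12.72, and MYC, a growth regulator, had 12.23 and 12.11. Feedback inhibitors of the pathway were bright too: NKD1 had 12.08 and 11.92 and AXIN2 had 11.71 and 11.87. Among these the widest gap between the arrays was 0.39, in NOTUM. LGR5, a receptor and stem cell marker, was detected only just above the range, whereas LGR4, its relative, was undetected at 4.72 and 4.65. OLFM4, another crypt stem cell marker, was undetected at 4.5 and 4.51. EPHB3, a receptor that holds progenitors in the crypt, had 7.71 and 7.28.

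Mesenchymal genes divided between bright and undetected members, with 10 of 18 detected (55.6%, beside 58.4% of all named genes) and 6 above the range. S100A4, a calcium-binding protein associated with motility and metastasis, had 13.56 and 13.64. TGFBI, a matrix protein induced by TGF-beta, had 12.03 and 12.08, and VIM, vimentin, the intermediate filament of mesenchymal cells, had 11.63 and 11.29. The transcription factor SNAI2 had 7.67 and 7.39 and TWIST1 had 6.92 and 7.17, while SNAI1 and ZEB1 were detected within the range. FN1, fibronectin, was undetected at 4.89 and 4.81, CDH2, N-cadherin, at 4.79 and 4.61 and SPARC, a matrix glycoprotein, at 4.66 and 4.52. ZEB2, PRRX1 and MMP9 were undetected too. S100A4 and VIM were thus bright in cells that also had a bright CDH1, while FN1 and CDH2 were in the background.

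**Figure D3:**
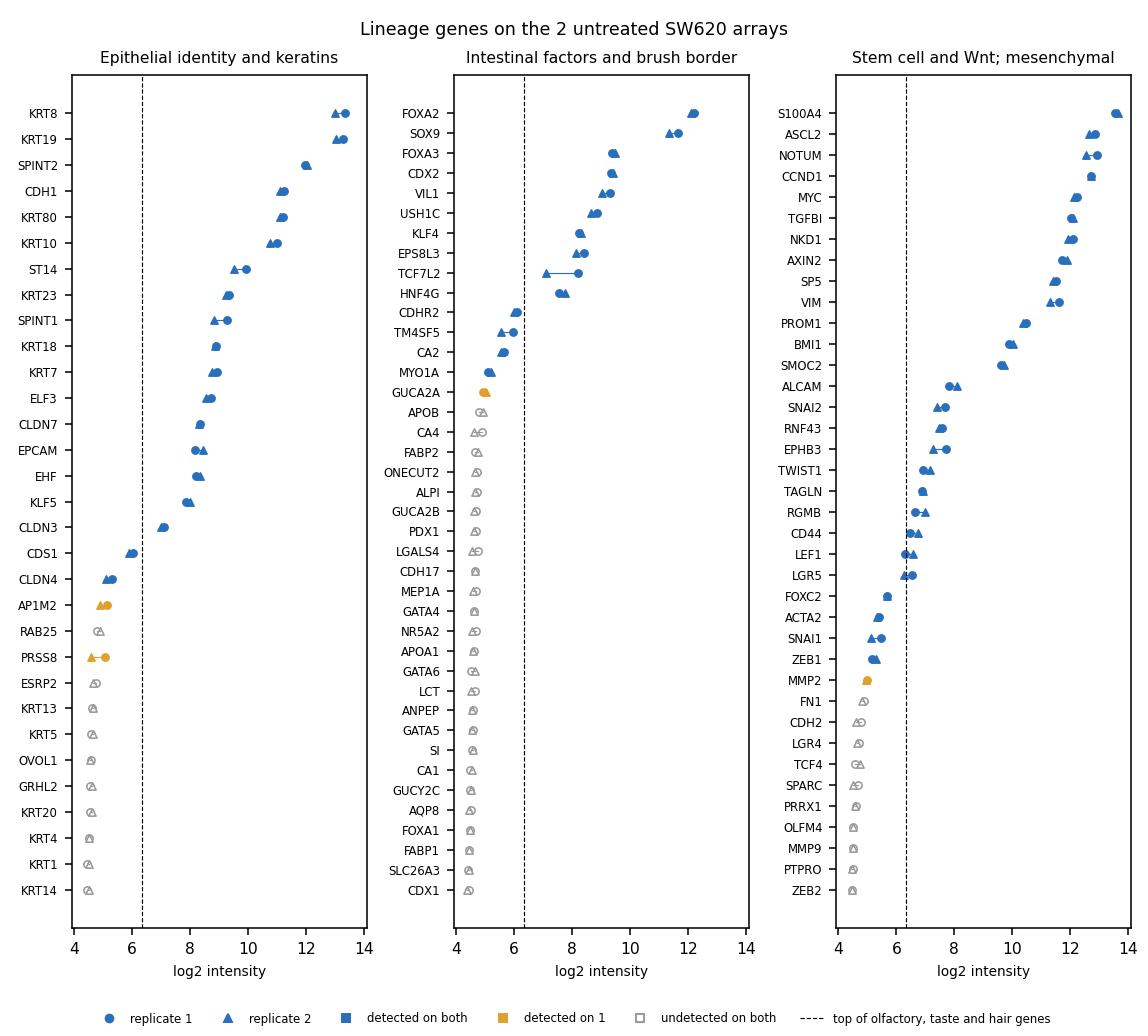
Log2 intensity of each lineage gene on replicate 1 (circle) and replicate 2 (triangle), joined by a line, blue where detected on both arrays, orange on 1 and open grey on neither. The dashed line marks 6.35, the highest olfactory, taste or hair gene. KRT8, FOXA2 and S100A4 top their panels, and CDX1, KRT14 and ZEB2 close them in the background.

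Smaller lineage lists held single bright members. CEACAM1, an adhesion molecule of the carcinoembryonic antigen family, had 8.06 and 8.47, while CEACAM6 had 4.94 and 5.2, within the range, and 5 of 9 members were undetected on both arrays, CEACAM7 among them at 4.46 and 4.45. Of the globin and haem synthesis genes 10 of 16 were detected, 7 of them above the range. The haem enzymes UROD, uroporphyrinogen decarboxylase, at 11.4 and 11.42 and UROS, the enzyme before it, at 9.91 and 10.03 were detected, against 4.72 and 4.59 for ALAS2, the first haem enzyme of red cells, which was undetected. Among the globins HBQ1, theta globin, had 9.07 and 9.29 and HBE1, the embryonic epsilon globin, had 8.11 and 8.03. The alpha globin HBA2 at 4.62 and 4.68, the beta globin HBB at 4.69 and 4.56, the delta globin HBD at 4.53 and 4.62, HBM at 4.56 and 4.69 and the embryonic zeta globin HBZ at 4.61 and 4.6 were undetected. Of 27 cancer-testis and fetal genes 23 were undetected on both. The exceptions above the range were SOX2, a pluripotency and foregut transcription factor, at 10.64 and 10.99 and IGF2BP3, a fetal RNA-binding protein, at 10.62 and 10.8. PRAME and IGF2BP1 lay within it at 5.28 and 5.1 for PRAME and 4.98 and 5.23 for IGF2BP1.

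Markers of other cell types were mostly near or at the background, with 22.5% detected on both arrays beside 58.4% of all named genes. None of 9 muscle genes was detected, with DES, desmin, at 4.67 and 4.6. Of 13 leukocyte markers 3 were detected, all within the range of the olfactory, taste and hair genes, the highest being CD68 at 6.1 and 6.07. CD3E, a subunit of the T cell receptor complex, was undetected at 4.68 and 4.51. Of 10 endothelial markers 4 were detected, again all within the range, with PECAM1 at 5.92 and 5.7 and CDH5, VE-cadherin, undetected at 4.55 and 4.59. Of 10 fibroblast markers 2 were detected, of which PDGFRA at 6.41 and 6.32 lay at the edge of the range, and the collagens COL1A2 at 4.64 and 4.58 and COL3A1 at 4.5 and 4.47 were undetected. Of 9 neural and glial markers 2 were detected, and only MBP, myelin basic protein, at 9.55 and 9.56 lay above the range. Of 10 hepatocyte markers 4 were detected, and only SERPINA1, alpha-1 antitrypsin of liver, at 7.56 and 7.69 lay above it. Of 10 melanocyte, lung and prostate markers 1 was detected, also above the range. It was TMPRSS2, a serine protease of prostate and gut epithelium, at 8.84 and 8.83.

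E-cadherin, given above, was the only cadherin of its list to be detected. In the list of cadherins and catenins 7 of 16 genes were detected, 6 of them above the range, and CDH2, CDH3, CDH5, CDH6, CDH11, CDH15, CDH16 and CDH17 were undetected. VCL, vinculin, which ties junctions and focal adhesions to actin, had 12.36 and 12.32. CTNNA1, alpha-catenin, the link from cadherin to actin, had 12.02 and 12.04, and JUP, plakoglobin, shared by both kinds of junction, had 10.68 and 10.51. CTNNB1, beta-catenin, the Wnt effector and cadherin partner, had 8.87 and 8.72, and another probe of it was undetected. CDH3, P-cadherin, which was undetected, had 4.73 and 4.58.

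Desmosomes, which join the keratin filaments of neighbouring cells, had 9 of 14 genes detected, 6 of them above the range. DSG2, the desmoglein of simple epithelia, had 7.73 and 7.68, against 4.59 and 4.62 for DSG1 and 4.59 and 4.8 for DSG3, which belong to the epidermis and were undetected. Of 7 desmocollins and desmogleins 3 were detected, DSG2, DSG4 and DSC2, so DSG2 was not the only desmoglein detected. PKP2, a plakophilin, had 9.59 and 9.45 and PKP3 had 9.07 and 8.65, against 4.84 and 4.51 for the undetected epidermal PKP1. PERP, a small membrane protein of desmosomes, had 10.04 and 9.95.

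Tight junctions seal the space between epithelial cells. Of their genes 14 of 23 (60.9%) were detected and 10 (43.5%) lay above the range, near the 58.4% and 45.9% of all named genes. CLDN1, a sealing claudin, had 11.46 and 11.66. TJP1, the scaffold ZO-1, had 9.43 and 9.51. CLDN12 had 8.91 and 9.23, CLDN7 had 8.36 and 8.31 and CLDN15, a cation pore of the intestine, had 8.16 and 8.16. CLDN2, a pore-forming claudin of leaky epithelia, was undetected at 4.75 and 4.65, and OCLN, occludin, was undetected as well. Of 12 gap junction genes 5 were detected, 4 of them above the range. GJC1, connexin 45, had 10.74 and 10.37 and GJB1, connexin 32, had 9.45 and 9.25, against 4.62 and 4.55 for the undetected GJA1, connexin 43, the most widespread member of the family.

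Integrins are paired receptors for the matrix. Of the alpha chains 6 of 16 were detected on both arrays, all above the range. ITGAE, the alpha E chain that binds E-cadherin with ITGB7 on lymphocytes, had 10.18 and 10.3. ITGA6, the laminin-binding chain of epithelia, had 8.83 and 9.18, ITGAV, a partner in vitronectin receptors, had 8.07 and 7.84, and ITGA3, another laminin-binding chain, had 7.35 and 7.86. ITGA5, the fibronectin receptor chain, had 7.29 and 7.3, and ITGA2, which binds collagen, had 7.13 and 6.99. The leukocyte chains ITGAL, ITGAM, ITGAX and ITGAD were undetected, as was ITGA4 at 4.53 and 4.62 and ITGA1 at 4.69 and 4.57.

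Of the beta chains 5 of 8 were detected, 4 of them above the range. ITGB1, the common partner of most alpha chains, had 12.52 and 12.61, with 2 of its 4 probes undetected. ITGB5, which pairs with ITGAV, had 11.39 and 11.38. ITGB7, named above as the partner of ITGAE on lymphocytes, was detected above the range at 7.1 and 6.97. ITGB2 was detected within the range at 5.82 and 5.91. ITGB4, the hemidesmosome partner of ITGA6, had 11.13 and 10.32, a gap of 0.81 between the arrays, and 2 of its 4 probes were undetected. ITGB6, the epithelial partner of ITGAV, was undetected at 4.76 and 4.83, together with ITGB3 at 4.7 and 4.84 and ITGB8 at 4.63 and 4.57. Of 21 laminin and basement membrane genes, which hold integrin ligands, 10 (47.6%) were detected, 9 of them above the range. Of the laminin chains LAMA5 had 11.32 and 11.3, LAMB3 had 9.7 and 9.48, with 2 of its 3 probes undetected, and LAMC1 had 9.31 and 9.66, against 4.5 and 4.6 for LAMA1 and 4.74 and 4.68 for LAMA2, both undetected. COL4A2, a chain of basement membrane collagen, had 8.53 and 8.08, while COL4A5 was undetected at 4.47 and 4.51.

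The focal adhesion list was the adhesion list with the highest share detected, 23 of 27 (85.2%), with 20 above the range and 9 among the brightest 10%. TNS3, a tensin that binds integrin tails and actin, had 12.54 and 12.45. The actin cross-linkers ACTN1 and ACTN4 had 12.1 and 11.58 for ACTN1 and 11.71 and 11.42 for ACTN4. ILK, a scaffold pseudokinase at integrin tails, had 11.37 and 11.68. PTK2, focal adhesion kinase, the enzyme that the compound Y15 of this series is known to target, had 10.71 and 10.97. SRC was detected and PXN was detected within the range, and TNS1, a tensin related to TNS3, was undetected at 4.68 and 4.61.

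Of the other adhesion molecules 17 of 27 genes were detected, 14 of them above the range. Among the tetraspanins CD81 had 13.41 and 13.41, CD151, which binds laminin-binding integrins, had 13.08 and 13.18, CD9 had 10.66 and 10.44 and CD63 had 9.14 and 9.22. CD24, a glycosylated surface protein of epithelial progenitors and many carcinomas, had 12.23 and 12.45. ICAM2 had 10.2 and 10.27, against 4.78 and 4.75 for ICAM1, a ligand of leukocyte integrins, which was undetected. MCAM, an adhesion molecule of vessels and melanoma, was undetected at 4.52 and 4.61.

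Hyaluronan is a long matrix sugar made at the cell surface by HAS enzymes. Of 19 genes of its metabolism 11 (57.9%) were detected, beside 58.4% of all named genes. All 11 lay above the range of the olfactory, taste and hair genes. HAS3, the synthase silenced elsewhere in the series, had 9.77 and 9.93, and HAS2, the other synthase measured, had 7.81 and 7.61, with 1 of its 2 probes undetected. UGP2 and UGDH, which make the UDP-sugar precursor, had 10.54 and 10.74 for UGP2 and 10.27 and 10.43 for UGDH. On the side of breakdown CEMIP, a hyaluronan-degrading protein, had 11.64 and 11.79, and CEMIP2, a related membrane protein, had 10.14 and 10.39. Of the receptors HMMR, which is also a mitotic spindle protein, had 10.04 and 10.44 and CD44, the main surface receptor, had 6.48 and 6.74, at the dim end of the detected genes and with 1 of its 3 probes undetected. LYVE1, the receptor of lymphatic vessels, was undetected at 4.45 and 4.48.

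Receptor genes were seldom bright: 126 of 275 were detected, 88 lay above the range and 9 were among the brightest 10%. Of 12 genes of the EGF receptor family and its ligands 5 were detected, 4 of them above the range. ERBB3, which signals only with a partner, had 9.83 and 9.81 and ERBB2, the partner without a ligand, had 8.19 and 8.32. EGFR, the receptor of EGF itself, was undetected at 4.74 and 4.56, and ERBB4 was detected on 1 array. On the ERBB2 signal the probes disagreed, since 2 of its 3 probes were undetected. Of the ligands TGFA had 8.99 and 9.26 and HBEGF had 8.02 and 8.2, which both bind EGFR, while EREG, another EGFR ligand, was undetected at 4.66 and 4.76. NRG1, the ligand of ERBB3, was undetected at 4.55 and 4.55, and NRG4, a ligand of ERBB4, had 5.51 and 5.57, within the range.

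Of 34 other receptor tyrosine kinases 16 were detected, 12 of them above the range. RYK, a Wnt-binding receptor with an inactive kinase, had 10.57 and 10.93. FGFR4, an FGF receptor of endoderm, had 9.75 and 9.32, against 4.85 and 4.72 for the undetected FGFR1. TYRO3, of the TAM family, had 9.23 and 9.17, and DDR1, a collagen receptor of epithelia, had 9.15 and 8.94, against 4.89 and 4.94 for the undetected DDR2. MET, the receptor of hepatocyte growth factor, had 7.96 and 8.06 and its relative MST1R had 8.69 and 8.55. The receptors of vessels and blood cells KDR, FLT1, FLT3, KIT and CSF1R were undetected, and so were ALK at 4.89 and 4.66 and the insulin receptor gene INSR. Of Eph receptors and ephrins 11 of 20 were detected, 6 of them above the range. The ligand EFNB2 had 11.91 and 11.84 and EFNA1 had 9.99 and 10.13, and the receptor EPHA2 had 9.84 and 9.28 and EPHB6 had 9.55 and 9.3.

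Receptors of the Wnt pathway were detected in 15 of 19 cases, 11 of them above the range, and 9 of 10 frizzled genes were among them. FZD9 had 8.0 and 8.11 and FZD2 had 7.36 and 7.57, against 4.59 and 4.59 for FZD8, the undetected frizzled. LRP5, a co-receptor, had 10.02 and 9.13, a gap of 0.88 between the arrays. LGR6, a receptor of R-spondins, had 8.43 and 8.72, with 3 of its 4 probes undetected. Of the TGF-beta family 7 of 14 receptors were detected, all above the range. BAMBI, a pseudoreceptor that dampens TGF-beta signals and is a known Wnt target, had 12.68 and 12.88. TGFBR2, the ligand-binding receptor, had 10.74 and 10.75, whereas its partner TGFBR1 was undetected. ACVR1B, an activin receptor, had 9.24 and 9.27, with 3 of its 4 probes undetected. Of the Notch genes 7 of 9 were detected, 4 above the range and 3 within it. The ligand JAG2 had 10.49 and 10.32 and the receptor NOTCH1 had 8.84 and 8.65, while the ligand DLL4 at 5.99 and 5.16 and the receptor NOTCH4 at 5.23 and 5.29 lay within the range, and NOTCH2 at 4.49 and 4.66 and NOTCH3 at 4.75 and 4.73 were undetected.

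Death receptors and their relatives were detected in 15 of 24 cases (62.5%, beside 58.4% of all named genes), 11 of them above the range. LTBR, the lymphotoxin beta receptor, had 11.39 and 11.2. TNFRSF10B, the TRAIL receptor DR5, had 10.88 and 11.17, and TNFRSF1A, the main TNF receptor, had 10.34 and 9.95. FAS, another death receptor, was undetected at 4.53 and 4.58, and CD40, a receptor of antigen-presenting cells, at 4.6 and 4.92. Of 39 cytokine receptor genes 16 were detected, 12 of them above the range. IFNGR2 had 11.32 and 11.3 and IFNGR1 had 9.6 and 9.76, which together form the interferon-gamma receptor. IL10RB, a chain shared by several receptors, had 9.75 and 9.999, against 4.78 and 4.98 for the leukocyte chain IL10RA, which was undetected. IL13RA1, a chain of the interleukin-4 and interleukin-13 receptor, had 10.14 and 10.36.

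Among 19 chemokine receptors 1 stood above the range. CCR6, the receptor of CCL20, had 11.89 and 11.62, with its other probe undetected. CXCR5 had 5.9 and 5.98, within the range, and 15 genes, CXCR4 among them, were undetected on both arrays. All 10 Toll-like receptor genes measured were undetected, with TLR4, the receptor of lipopolysaccharide, at 4.56 and 4.51 and TLR5, the receptor of flagellin, at 4.47 and 4.46. The adaptors they use were detected, with TICAM1 at 8.84 and 9.26 and MYD88 at 8.47 and 8.15.

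Of 37 hormone and metabolite receptors coupled to G proteins 13 were detected, 7 of them above the range. F2R, the thrombin receptor PAR1, had 13.14 and 13.002, the brightest gene of the receptor lists. NTSR1, the neurotensin receptor, had 10.12 and 9.95, HTR2A, a serotonin receptor, had 10.09 and 10.28, and ADORA2B, an adenosine receptor of colon epithelium, had 9.4 and 9.49. The adrenergic receptor ADRB1 was undetected at 4.59 and 4.46, as was the dopamine receptor DRD1 at 4.65 and 4.66. Of 38 nuclear receptors 17 were detected, 13 of them above the range. PPARG, a fatty acid sensor abundant in colon, had 9.74 and 9.99, with 2 of its 4 probes undetected. ESRRA, a regulator of mitochondrial genes, had 9.87 and 9.44, and RXRA, the common partner, had 9.28 and 9.14. The oestrogen receptors ESR1 at 4.55 and 4.62 and ESR2 at 4.68 and 4.61 were undetected.

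**Figure D4:**
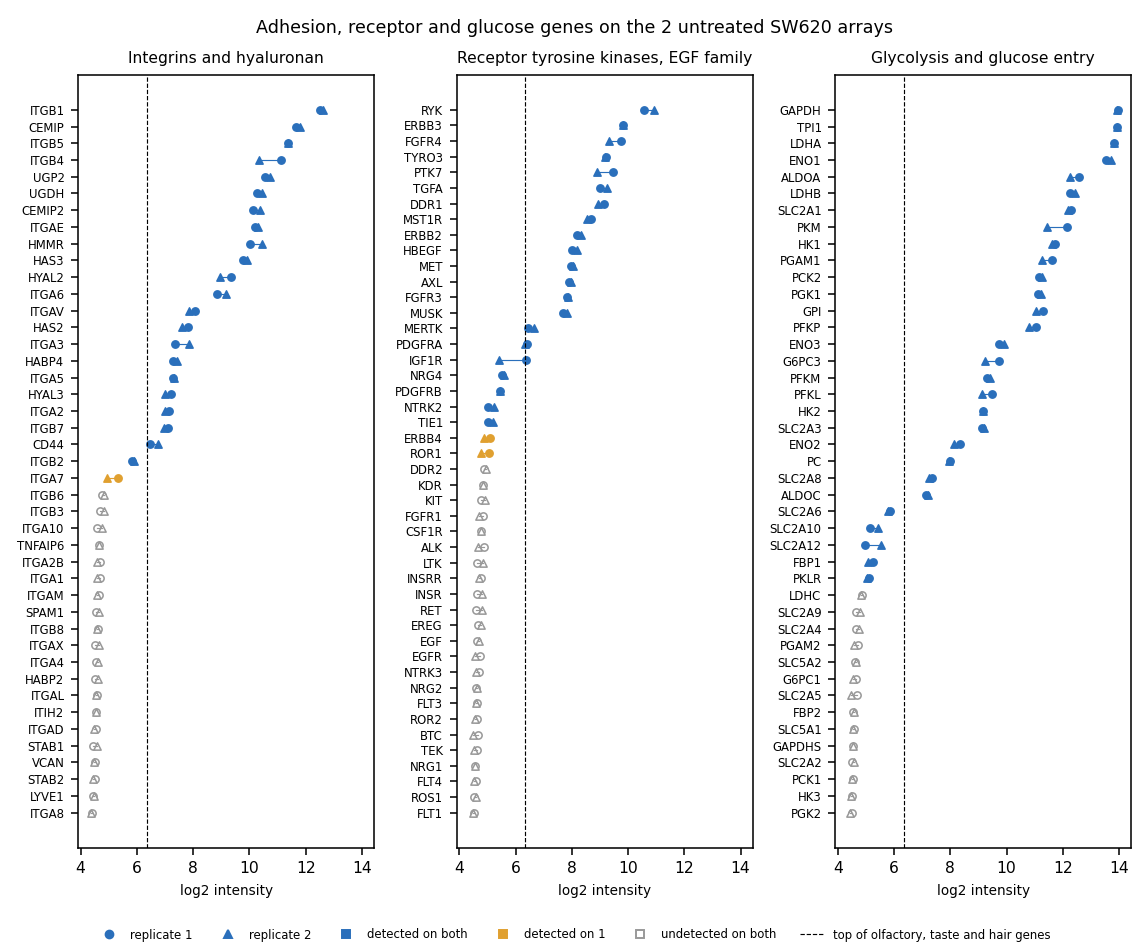
Log2 intensity of integrin and hyaluronan genes (left), receptor tyrosine kinases with the EGF family (middle) and glycolysis and glucose entry genes (right) on replicate 1 (circle) and replicate 2 (triangle), blue where detected on both arrays, orange on 1 and open grey on neither. The dashed line marks 6.35. ITGB1, RYK and GAPDH top their panels, and the panel of receptor tyrosine kinases reaches 10.93 where that of glycolysis reaches 13.95.

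Metabolic genes were bright as a category. Glycolysis breaks glucose to pyruvate and lactate, and 19 of 24 of its genes were detected, 18 above the range and 12 among the brightest 10%. GAPDH had levels of 13.95 and 13.94 and TPI1, which joins the 2 triose products, had 13.94 and 13.93. LDHA, which makes lactate from pyruvate, had 13.82 and 13.82, and LDHB, the heart form, had 12.25 and 12.42. ENO1, enolase, had 13.54 and 13.7 and ALDOA, aldolase, had 12.57 and 12.25, with 1 of its 4 probes undetected. The 5 undetected genes were the sperm forms GAPDHS, LDHC and PGK2, the muscle form PGAM2 and the leukocyte hexokinase HK3, with levels between 4.44 and 4.84.

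Glucose enters through SLC2A transporters, and of 19 genes of glucose transport and gluconeogenesis 10 were detected, 6 of them above the range. SLC2A1, the GLUT1 transporter of most dividing cells, had 12.3 and 12.17, and SLC2A3, GLUT3, whose probe may read the near-identical SLC2A14, had 9.13 and 9.19. SLC2A2, the liver and gut form, was undetected at 4.5 and 4.58, SLC2A4, the insulin-regulated form, at 4.64 and 4.75 and SLC2A5, the fructose transporter, at 4.67 and 4.45. Gluconeogenesis showed its mitochondrial forms, PCK2 at 11.15 and 11.25 and PC, pyruvate carboxylase, at 7.98 and 7.95, against 4.55 and 4.51 for the cytosolic PCK1 and 4.63 and 4.55 for the liver phosphatase G6PC1, both undetected. The ubiquitous phosphatase G6PC3 had 9.73 and 9.22. Of 7 genes of lactate export and pH control 4 were detected, 2 of them above the range. BSG, basigin, the chaperone of lactate transporters, had 13.16 and 12.9 and SLC4A7, a bicarbonate carrier, had 9.93 and 10.19. The monocarboxylate transporters SLC16A7 at 4.62 and 4.58 and SLC16A8 at 4.59 and 4.68 were undetected. They were the only monocarboxylate transporters measured in this list, of which another 4 genes had no named probe, so lactate transporters as a group are not described.

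Mitochondrial pathways had most of their members detected. In the tricarboxylic acid cycle 21 of 23 genes were detected, 19 above the range, with MDH2, malate dehydrogenase, at 13.75 and 13.7, CS, citrate synthase, at 12.12 and 12.27 and SDHA, of succinate dehydrogenase, at 11.58 and 11.42. In oxidative phosphorylation 39 of 44 were detected, 37 lay above the range and 33 among the brightest 10%, with a median percentile of 97.2. COX8A, a small subunit of cytochrome oxidase, had 13.81 and 13.6, NDUFA1 of complex I had 13.39 and 13.39, and ATP5F1A, the alpha subunit of ATP synthase, had 13.25 and 13.21. The 5 undetected genes were tissue-restricted forms of cytochrome oxidase, COX4I2, COX6A2, COX6B2, COX7A1 and COX8C, with COX6A2 of muscle at 4.45 and 4.42.

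Pathways that supply building blocks followed. The pentose phosphate and nucleotide list had 27 of 29 genes detected (93.1%), 25 above the range. PAICS and ADSL, consecutive enzymes of purine synthesis, had 12.7 and 12.86 for PAICS and 12.46 and 12.41 for ADSL. TALDO1, transaldolase, had 12.7 and 12.62 and RRM1, the large subunit of ribonucleotide reductase, had 12.24 and 11.998. The undetected members were TKTL1 at 4.56 and 4.48 and TKTL2 at 4.52 and 4.55, against 11.93 and 12.22 for transketolase TKT itself. Serine and one-carbon metabolism had 15 of 21 detected, all above the range. SHMT2, the mitochondrial enzyme that takes a carbon from serine, had 13.7 and 13.88, AHCY, which clears S-adenosylhomocysteine, had 13.49 and 13.56, and PHGDH, the first step of serine synthesis, had 12.84 and 12.66. MAT2A, the S-adenosylmethionine synthase of most tissues, had 12.43 and 12.5, against 4.6 and 4.49 for the liver form MAT1A, and GLDC, glycine decarboxylase, was undetected at 4.63 and 4.8.

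Amino acid and polyamine genes were detected in 16 of 21 cases, 13 of them above the range. ODC1, the first enzyme of polyamine synthesis, had 13.19 and 13.04. ASNS, asparagine synthetase, had 12.95 and 13.07, ASS1, argininosuccinate synthase, had 12.69 and 12.61, and GOT2, mitochondrial aspartate aminotransferase, had 12.78 and 12.86. The urea cycle genes of liver CPS1 at 4.56 and 4.54, OTC at 4.55 and 4.51 and ARG1 at 4.46 and 4.49 were undetected, and GLUL, glutamine synthetase, was detected on 1 array. Of 25 amino acid transporters 15 were detected, 12 of them above the range. SLC7A5, the large neutral amino acid carrier, had 12.26 and 12.09, its heavy chain SLC3A2 had 10.54 and 9.82, and SLC1A5, a glutamine carrier, had 12.16 and 12.000. The peptide carrier of gut SLC15A1 was undetected at 4.64 and 4.86, as was SLC3A1 at 4.47 and 4.46.

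Lipid pathways were detected almost throughout. In fatty acid synthesis and storage 23 of 27 genes were detected, 20 above the range, with FASN, fatty acid synthase, at 12.56 and 12.76, SCD, the desaturase, at 12.39 and 12.55, ACLY, which supplies acetyl-CoA from citrate, at 10.73 and 10.999 and PLIN2, a lipid droplet coat, at 11.52 and 11.7. PLIN1, the droplet coat of adipocytes, was undetected at 4.49 and 4.53. In fatty acid oxidation 23 of 25 were detected, 21 above the range, with ETFA, the electron carrier, at 12.65 and 12.52, ACADVL at 12.51 and 12.58 and ACADM at 11.28 and 11.59, dehydrogenases of very long and medium chains. Cholesterol synthesis had 16 of 17 genes detected, 14 above the range and none of them among the brightest 10%, and its highest signals were DHCR7, the last step to cholesterol, at 10.27 and 10.19 and SQLE, squalene epoxidase, at 9.47 and 9.47.

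Drug metabolism was the metabolic list with the lowest share, 17 of 38 (44.7%), with 14 above the range. GSTP1, the glutathione transferase of many tumours, had 13.47 and 13.37. NQO1, a quinone reductase, had 11.6 and 11.7 and AKR1C3, an aldo-keto reductase, had 10.85 and 11.04, against 4.46 and 4.44 for its undetected relative AKR1C1. CYP2S1, a cytochrome P450 of epithelia, had 8.94 and 8.72, while CYP1A1 at 4.52 and 4.65, CYP3A4 at 4.65 and 4.7 and ALDH1A1, a retinal dehydrogenase used as a stem cell marker, at 4.51 and 4.59 were undetected.

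Promoters, a feature that played no part in choosing arrays or genes, differed between detected and undetected genes. RefSeq promoters (GRCh38.p14) were matched to 13477 of 16586 protein-coding genes on the array, each a window of 250 bases before and 50 bases after the start. CpG sites are cytosines followed by guanine, and the ratio of observed to expected CpG separates CpG islands from the rest of the genome. A ratio of 0.6 or more was found in 83.7% of 8181 promoters of genes detected on both arrays, against 41.9% of 4747 of undetected genes, beside 68% of all matched genes and 49% of the 27305 RefSeq promoters in the table. The median GC content was 65.3% for detected genes and 57.3% for undetected genes. Olfactory receptors contribute to the undetected class, and without them its share was 44.3%. Genes are not replicates, and the shares are a description of these gene classes.

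A TATA box was searched as TATAAA on the strand of the gene, starting 20 to 40 bases before the start. It was found in 1.7% of promoters of detected genes (139 genes) and in 6.89% of those of undetected genes (327 genes), beside 3.64% of all matched genes and 2.55% of all RefSeq promoters in the table. On either strand and anywhere in the window, where TTTATA is its form on the opposite strand, TATAAA was in 5.46% of promoters of detected genes and 15.6% of those of undetected genes, beside 12% of all RefSeq promoters. Within the detected genes the share of CpG-rich promoters was 67.4% in the dimmest and 91.2% in the brightest of 10 equal groups by level. The TATA share was 2.81% in the dimmest of these groups, 0.978% in each of the middle pair, and 2.69% in the brightest.

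**Figure D5:**
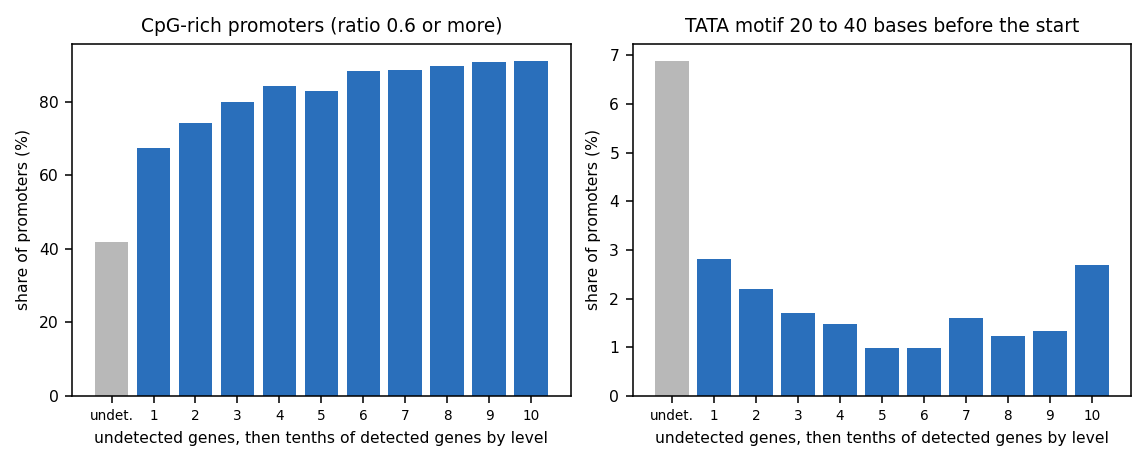
Share of promoters with a CpG ratio of 0.6 or more (left) and with TATAAA starting 20 to 40 bases before the start (right), for undetected genes (grey) and for 10 equal groups of the detected genes from dimmest (1) to brightest (10, blue). CpG-rich promoters made up 41.9% of the undetected class and 91.2% of the brightest group, and the TATA share was 6.89% and 2.69% in the same classes.

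How far single promoters follow these shares is shown by 4 of them, each printed as the 250 bases before the start. They were chosen after the values were seen, a detected and an undetected gene from each of 2 lists, among genes with 1 listed start. Capitals mark every CG dinucleotide and a TATAAA 20 to 40 bases before the start. The promoter of the detected SLC2A1 (chr1:42958869-42959118, minus strand) has both, with 24 CG and TATAAA 31 bases before the start, and that of the undetected G6PC1 (chr17:42900549-42900798, plus strand) has 3 CG and TATAAA 29 bases before the start. In CpG content both follow the larger share of their class, and both hold a TATAAA, which was rare in either class.
SLC2A1: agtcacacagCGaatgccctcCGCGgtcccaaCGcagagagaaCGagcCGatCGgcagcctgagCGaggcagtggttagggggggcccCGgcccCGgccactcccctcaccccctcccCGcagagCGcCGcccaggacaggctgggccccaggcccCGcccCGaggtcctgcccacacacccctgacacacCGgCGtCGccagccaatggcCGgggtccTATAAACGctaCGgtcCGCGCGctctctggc
G6PC1: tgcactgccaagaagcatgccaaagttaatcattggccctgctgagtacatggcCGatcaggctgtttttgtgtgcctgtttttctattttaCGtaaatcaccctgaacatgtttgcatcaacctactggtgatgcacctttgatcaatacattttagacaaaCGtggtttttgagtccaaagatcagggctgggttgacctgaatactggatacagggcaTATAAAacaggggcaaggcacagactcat

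In the pair taken from the mesenchymal list the order was the other way round, and the rest of that list was not looked at in this way. The promoter of the detected S100A4 (chr1:153545807-153546056, minus strand) has 7 CG and TATAAA 31 bases before the start, with a CpG ratio of 0.293 in the whole window. That of the undetected FN1 (chr2:215436069-215436318, minus strand) has 32 CG, no TATAAA at that place and a ratio of 0.864. The signal of S100A4, 13.56 and 13.64, was thus among the brightest with a CpG-poor promoter, while FN1 lay in the background with a CpG-rich one.
S100A4: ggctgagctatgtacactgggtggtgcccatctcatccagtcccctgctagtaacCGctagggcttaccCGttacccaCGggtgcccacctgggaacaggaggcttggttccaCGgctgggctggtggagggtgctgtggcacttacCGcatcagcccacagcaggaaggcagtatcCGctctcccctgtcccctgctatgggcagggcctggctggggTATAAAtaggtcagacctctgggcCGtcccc
FN1: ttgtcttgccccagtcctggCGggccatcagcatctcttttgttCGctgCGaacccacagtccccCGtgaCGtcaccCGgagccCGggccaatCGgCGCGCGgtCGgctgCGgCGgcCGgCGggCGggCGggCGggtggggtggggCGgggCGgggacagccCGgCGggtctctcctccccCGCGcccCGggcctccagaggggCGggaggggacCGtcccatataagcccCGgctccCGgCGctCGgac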

How the data were processed

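Bead-summary intensity of each probe, on a linear scale and not normalized, was deposited by the authors with a detection p-value beside each intensity per the file headers. The submitters' processing notes name GenomeStudio without a version. A deposited matrix of log2 values for all 8 arrays, with a median of 5.86 on both untreated ones, was found by comparison to equal the quantile-normalized log2 intensities of the 8 arrays without background correction to within 0.075. How it was computed is not given in the sources used.

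From the 2 untreated arrays, grouped by title, background was corrected with nec of limma 3.58.1 (R 4.3.3), which infers it from those p-values (offset 16). Quantile normalization of the 2 arrays and log2 followed. Probes were named by the platform's annotation, with symbols brought up to date by gene ID from the RefSeq list of GRCh38.p14, which served for names only. Of 24526 probes 21834 had 1 symbol, 21813 of them in that list, and 2692 are unnamed here. Promoter sequences are from RefSeq, GRCh38.p14, at the most upstream listed start. The steps were tested on simulated data. No test was made, since no groups were compared and 2 arrays limit the precision.

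Gene lists were drawn up from general knowledge. The arrays, lists and settings were chosen with earlier results of these data known. Genes given with values were taken by rule from the 30 brightest genes and from the members of each list. From a list these were up to 6 detected members of highest level and up to 6 undetected members in alphabetical order. Not every such gene is given. All of a fixed set is given (HAS2, HAS3, CD44, HMMR, PTK2, EPCAM, CDH1, VIM, CDX1, CDX2, EGFR, ERBB2, ERBB3 and MET). So are the 10 detected genes with the largest difference between the arrays. KRTAP19-6 and RPL10 were named as members of reference lists.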

Additional observations from a re-analysis of the deposited data

How the results depend on the processing

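At a detection p-value under 0.01 in place of 0.05, 8028 genes were detected on both arrays and 8507 on neither, and the CpG-rich share became 86.7% for promoters of detected genes and 48% for those of undetected genes, while TATAAA near the start was found in 5.9% of promoters of undetected genes. The detected list members became 461 in all, with 219 metabolic, 90 adhesion, 90 receptor and 69 lineage genes. Reading only the brightest probe of a gene gave 9878 genes detected. With replicate 1 or replicate 2 left out, 10093 to 10378 genes were detected on the array that remained. Counting only genes above the olfactory, taste and hair genes, an alternative chosen after the data were seen, gave 7773 genes and 453 list members. The rank of signals of the named genes had a Spearman correlation of 0.9864 with the mean of a gene's probes in place of the brightest. With every other setting tried it was at least 0.9889. The settings that leave out a replicate set the mean of 2 arrays against 1 of these same arrays. Between the 2 arrays themselves the Spearman correlation over the named genes was 0.9604. Of the 100 brightest genes 79 were shared with the mean of probes, against 95 to 100 with the other settings. The mean of probes moved the percentile of 255 of the 603 named genes by at least the SD between arrays or a small fixed minimum, whichever was larger. No paired analysis was possible because no groups were compared. Precision is limited by 2 arrays, by the background below a level of about 4.96, and by the crowding of the brightest probes.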

Other observations

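Among genes detected on both arrays, the 10 with the largest difference between replicates had gaps of about 1 log2 unit. MFHAS1 had levels of 8.45 and 7.36, SAMD4B had 8.06 and 6.91, TPGS1 had 7.41 and 6.22, GPC1 had 7.31 and 6.19, PRICKLE3 had 7.14 and 6.03, TCOF1 had 6.74 and 5.61 and UNC5B had 6.21 and 5.12, all brighter on replicate 1, as was TCF7L2. RGS2, a regulator of G protein signalling, had 5.89 and 7.03 and SRSF3, a splicing factor that all cells need, had 4.98 and 6.08, both brighter on replicate 2. By their mean levels TCOF1, UNC5B and SRSF3 lay within the range of the olfactory, taste and hair genes, and 1 of the 3 probes of TCOF1 was undetected.

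The share of protein-coding genes detected on both arrays varied between chromosomes around 58.9%. It was 66.9% on chromosome 16 (462 of 691 genes), 65.6% on chromosome 15 and 64.7% on chromosome 22, and 48.1% on chromosome X (322 of 669 genes), 50.6% on chromosome 4 and 53.7% on chromosome 11. These shares are a description of 1 line and were not tested. Of the 2692 probes without a gene name 1221 were detected on both arrays.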
